A study of Rattus norvegicus with 6 samples.

Results

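Skeletal muscle stores glucose as glycogen, and 7 genes of muscle glycogen breakdown and synthesis were followed in rat tibialis anterior after a nerve injury and repair. They were chosen by symbol: Phka1, Phkb and Phkg1, subunits of phosphorylase kinase, Pygm, the muscle glycogen phosphorylase, Pgm1, phosphoglucomutase, Gys1, the muscle glycogen synthase, and Ppp1r3a, a subunit that brings protein phosphatase 1 to glycogen. The choice of these 7 was made with earlier results of these data known. Of these, 6 were on the array, out of 10411 genes with a probe set of a single symbol, and they were measured by 10 of the 15866 probe sets that were not controls. All 10 were bright enough to be tested. No probe set with the single symbol Ppp1r3a was found, so that gene was not analysed here. Phka1 and Pgm1 had 2 probe sets each, Pygm had 3, and Phkb, Phkg1 and Gys1 had 1 each. Probe sets of one gene measure the same transcripts and are not independent of each other.

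The animals were 3 male Wistar rats, 8 weeks old. In each, the peroneal nerve was cut and its end sutured to the biceps femoris, the stumps of the nerve were sutured together 4 weeks later, and the animal survived for 8 weeks. RNA came from the ipsilateral tibialis anterior, on the operated side, and from the contralateral tibialis anterior of the same animal, 3 muscles per group, numbered by animal as 4, 5 and 6. Each muscle was measured on 1 array. Both groups therefore shared the surgery, the anaesthesia and the survival time, and the contralateral muscle is a control within an operated animal, not a muscle of an unoperated one.

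In working muscle, calcium release and hormone signals activate phosphorylase kinase. Its gamma subunit carries the kinase activity, its alpha and beta subunits restrain it until they are phosphorylated, and its delta subunit is calmodulin, which senses calcium. The active kinase phosphorylates glycogen phosphorylase, which splits glucose 1-phosphate off glycogen, and phosphoglucomutase turns that into glucose 6-phosphate for glycolysis. Glycogen synthase runs the other way, adding glucose from UDP-glucose, and is active when dephosphorylated. Fast-twitch fibres generally rely more on this route than slow-twitch fibres do.

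The promoters of Phka1, Phkg1, Pygm and Gys1 are shown here, and those of the other measured members, Phkb and Pgm1, which held 0 E-box matches, are not. Phka1 and Phkg1 had large measured differences, Pygm is the enzyme their product activates, and Gys1 is the synthesis enzyme whose animals differed in direction. The sequences are 5′ to 3′ on the strand of the gene, from 250 bases before to 50 after a RefSeq transcript start in assembly GRCr8, and capitals mark matches to the E-box letters CANNTG, which read the same on both strands.
Phka1 promoter, chrX:71778072-71778371, strand minus: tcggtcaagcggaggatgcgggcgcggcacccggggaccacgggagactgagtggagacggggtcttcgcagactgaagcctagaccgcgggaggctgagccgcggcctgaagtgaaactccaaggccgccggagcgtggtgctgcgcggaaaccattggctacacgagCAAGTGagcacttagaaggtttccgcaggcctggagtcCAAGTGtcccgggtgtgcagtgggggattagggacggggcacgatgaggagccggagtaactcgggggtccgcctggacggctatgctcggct
Phkg1 promoter, chr12:32474827-32475126, strand plus: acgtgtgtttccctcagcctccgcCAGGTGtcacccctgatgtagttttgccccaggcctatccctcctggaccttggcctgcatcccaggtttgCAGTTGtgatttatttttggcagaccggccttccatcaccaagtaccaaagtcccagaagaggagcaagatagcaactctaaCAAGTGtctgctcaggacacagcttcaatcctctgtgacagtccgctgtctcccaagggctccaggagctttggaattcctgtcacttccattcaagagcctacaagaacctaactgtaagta
Pygm promoter, chr1:213119555-213119854, strand plus: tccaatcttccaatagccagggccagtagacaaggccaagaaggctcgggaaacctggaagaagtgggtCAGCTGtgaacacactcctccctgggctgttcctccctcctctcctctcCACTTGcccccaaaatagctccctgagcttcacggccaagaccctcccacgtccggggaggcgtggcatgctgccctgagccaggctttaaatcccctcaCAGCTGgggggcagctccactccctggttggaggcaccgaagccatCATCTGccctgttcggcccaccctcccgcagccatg
Gys1 promoter, chr1:105051666-105051965, strand plus: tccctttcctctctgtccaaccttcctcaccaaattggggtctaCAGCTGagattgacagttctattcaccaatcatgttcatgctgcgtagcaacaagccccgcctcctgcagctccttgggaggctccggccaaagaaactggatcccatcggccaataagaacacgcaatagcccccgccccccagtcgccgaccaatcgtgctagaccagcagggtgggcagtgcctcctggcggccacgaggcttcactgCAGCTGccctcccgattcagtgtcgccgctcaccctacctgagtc
There were 2 E-box matches in the Phka1 window, 3 in Phkg1, 4 in Pygm and 2 in Gys1, and 0 in the windows of Phkb and Pgm1. Of 33469 promoters of the same length, 72.1% held at least 1 match, with a median of 1 match per promoter. The window of Ppp1r3a, not measured here, held 4. A match of letters is a description of the window only.

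Some libraries stood apart from the rest. For beta-actin, the intensity of the 3′ control probe set over that of the middle one was 1.36, 1.53 and 2.87 in the ipsilateral muscles of animals 4, 5 and 6, against 2.77, 1.54 and 1.68 in the contralateral ones. The same ratio for GAPDH ran from 1.12 to 1.21 ipsilaterally and from 1.02 to 1.18 contralaterally. The cre hybridisation spike was lower on both arrays of animal 4 (1476 ipsilaterally and 1117 contralaterally) than on the other 4 arrays (2481 to 3605). The spermatid transcript Prm1 was highest in the ipsilateral library of animal 4, at 617. Median intensities of the arrays ran from 60.2 to 66.6, and their trimmed means were 150. The number of arrays limits the precision. Of the markers of the labelled tissue, 11 of 11 fibre structure genes on the array were bright enough to be tested, while 6 of 6 hepatocyte genes were not.

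The design compares, within each animal, the muscle whose nerve had been cut and repaired with the opposite one. As measured, all 10 member probe sets had a lower mean in the ipsilateral muscle, by 0.09 (Gys1) to 0.72 (Phka1) on the log2 scale, but 0 of the 10 passed the test across all probe sets, so these are measured differences and not calls. The enzymes of breakdown were lower in the ipsilateral muscle of animals 5 and 6 with every probe set, whereas animal 4 had values on both sides of 0. Gys1 was lower in 1 animal and higher in the other 2. Differences are ipsilateral minus contralateral values of log2(intensity + 15.8), a scale that understates differences of dim probe sets, with the standard error (SE) of limma's fit paired by animal. Adjusted p-values are Benjamini-Hochberg values over 9519 tested probe sets, and a call needs an adjusted p under 0.05.

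In limma's fit 0 of 9519 probe sets (0%) were called, with the lowest adjusted p at 0.2, so the count of 0 among the members does not set them apart. At an unadjusted p under 0.05, 5 of the 10 member probe sets were lower and 0 were higher, against 2.78% of all tested probe sets that were lower and 3.57% that were higher. Of those 5, 3 belong to Pygm. Leaving out animal 4 made the count of lower ones 9, where 7.82% of all tested probe sets were lower at that level. Leaving out animal 5 made it 0, where 0.966% were, and leaving out animal 6 made it 2, where 1.85% were, so the share over all probe sets moved with the members' count. With quantile normalization it was 2, where 2.67% were. Taking the brightest probe set of each gene, 3 of 6 members were lower at that level (Phka1, Pygm and Pgm1), against 2.88% of 7117 named genes. The ipsilateral muscle was lower in all 3 animals for 4 of the 10 probe sets, where 15.1% of all tested probe sets were, and higher in all 3 for 0, where 12.3% were. The median difference over the 6 genes was -0.36, against -0.02 over all named genes. Because the members were chosen with earlier results of these data known, these counts and medians are a description and not independent support. In bulk muscle, fewer fibres of one type and less RNA per fibre cannot be told apart.

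Phka1 encodes the muscle form of the regulatory alpha subunit of phosphorylase kinase. Its brighter probe set (1390210_at) had intensities of 877.7, 468.4 and 602.4 in the ipsilateral muscles of animals 4, 5 and 6, against 1028.9, 1187.9 and 943.6 in the contralateral ones. The highest ipsilateral value lay below the lowest contralateral one, so the groups did not overlap, as was the case in this direction for 5.78% of all tested probe sets. The mean was 649.5 ± 209 in the ipsilateral and 1053 ± 124 in the contralateral muscles (SD, n = 3 each). The log2 difference was -0.72 (SE 0.20, limma adjusted p = 0.545), with a 95% interval from -1.18 to -0.27, and -0.23, -1.31 and -0.63 in animals 4, 5 and 6. This was the largest member difference.

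The dimmer Phka1 probe set (1369357_at) had 376.4, 214.1 and 176.6 in the ipsilateral muscles, against 312.9, 400.8 and 293.1 in the contralateral ones. Here the groups overlapped, because the ipsilateral muscle of animal 4 was above all but one of the contralateral muscles. Its difference was -0.43 (SE 0.22, limma adjusted p = 0.776), with a 95% interval from -0.91 to 0.06, and 0.25 in animal 4. The 2 probe sets thus pointed opposite ways in animal 4 and the same way in animals 5 and 6.

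Phkb, the beta subunit, is a regulatory partner of the alpha subunit. It had 1101, 728.1 and 1022.3 in the ipsilateral muscles, against 1115.3, 1033.5 and 1165.5 in the contralateral ones. Each ipsilateral muscle was below its own contralateral muscle, least so in animal 4, and the groups overlapped. The difference was -0.23 (SE 0.15, limma adjusted p = 0.819), with a 95% interval from -0.57 to 0.10, and -0.02, -0.50 and -0.19 in animals 4, 5 and 6.

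Phkg1 encodes the catalytic gamma subunit of the muscle enzyme. It had 570.1, 193.3 and 201 in the ipsilateral muscles, against 409.5, 541.9 and 408.3 in the contralateral ones. The ipsilateral muscle of animal 4 was the highest of all 6 libraries, while those of animals 5 and 6 were the lowest, at 0.357 and 0.492 times their contralateral partners. The spread of the ipsilateral group was correspondingly wide, at 321 ± 215 against 453 ± 76.8 in the contralateral group (SD, n = 3 each). The difference was -0.64 (SE 0.30, limma adjusted p = 0.776), with a 95% interval from -1.31 to 0.03, and 0.46 for animal 4, -1.42 for animal 5 and -0.97 for animal 6.

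**Figure D1:**
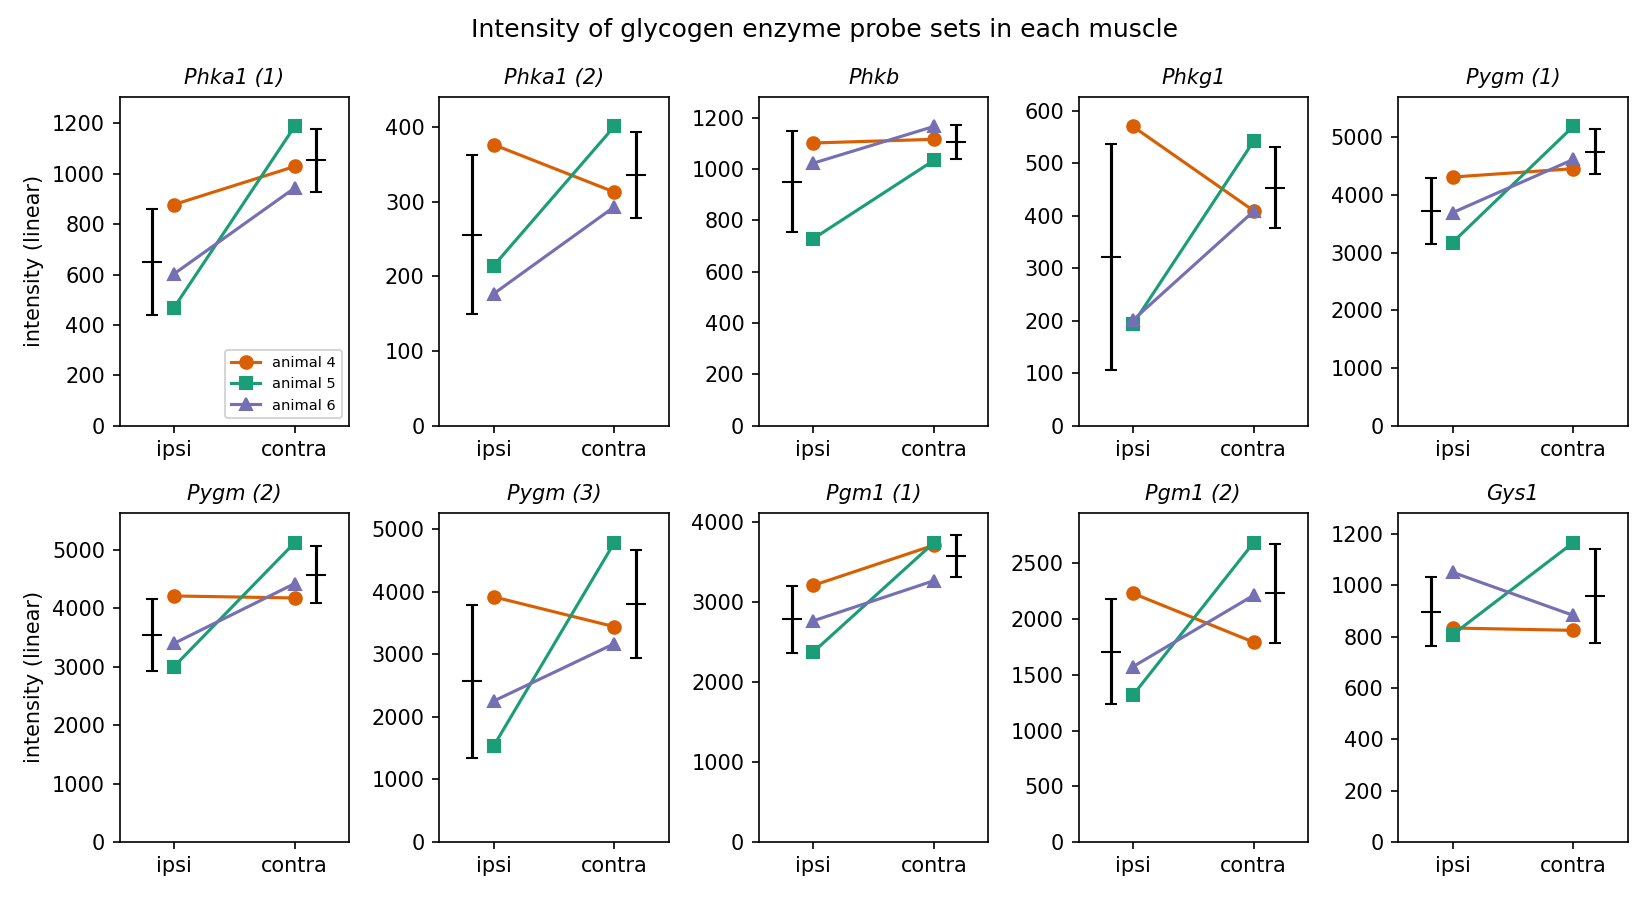
Linear intensity (y axis, from 0, a scale of its own in each panel) of the 10 member probe sets in the ipsilateral (left) and contralateral (right) muscles, with the muscles of 1 animal joined by a line and black marks for the group mean ± SD (n = 3). Numbers in brackets order the probe sets of a gene from bright to dim. The lines of animals 5 and 6 go up to the contralateral side in 9 panels, and in the Gys1 panel that of animal 6 goes down, while the lines of animal 4 are flat or go down in several panels.

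Pygm, the glycogen phosphorylase of muscle, was measured by 3 probe sets. The brightest (1370982_at) had 4313.7, 3176.9 and 3695.2 in the ipsilateral muscles, against 4458.6, 5192 and 4618.7 in the contralateral ones. The groups did not overlap, as in this direction for 5.78% of all tested probe sets, and animal 4 contributed a difference of only -0.05. The mean of this probe set was 3729 ± 569 in the ipsilateral and 4756 ± 386 in the contralateral muscles (SD, n = 3 each). Its difference was -0.36 (SE 0.14, limma adjusted p = 0.74).

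The next Pygm probe set (1383072_at) differed by -0.38 (SE 0.15, limma adjusted p = 0.763), with 0.01 in animal 4. The third (1375476_at) had 3921.5, 1534.1 and 2253.3 in the ipsilateral muscles, against 3443.6, 4787.9 and 3171.6 in the contralateral ones. It showed the widest contrast between animals within the gene, with the ipsilateral muscle of animal 5 at 0.32 times its contralateral partner and that of animal 4 above its partner. Its difference was -0.65 (SE 0.27, limma adjusted p = 0.77). The difference of the third probe set minus that of the brightest was 0.23, -0.93 and -0.17 in animals 4, 5 and 6. For the next probe set minus the brightest it was 0.06, -0.06 and -0.06, so these 2 agreed closely in every animal.

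Pgm1, which interconverts glucose 1-phosphate and glucose 6-phosphate and so serves both directions of the route, was measured by 2 probe sets. The brighter (1388634_at) had 3204.4, 2372.1 and 2761.6 in the ipsilateral muscles, against 3706.7, 3738 and 3263.2 in the contralateral ones. The groups did not overlap, as in this direction for 5.78% of all tested probe sets. With this brighter probe set each animal was lower ipsilaterally, by -0.21, -0.65 and -0.24 in animals 4, 5 and 6. Its difference was -0.37 (SE 0.13, limma adjusted p = 0.701), with a 95% interval from -0.67 to -0.07.

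The dimmer Pgm1 probe set (1369473_at) had 2231.5, 1316.5 and 1572.4 in the ipsilateral muscles, against 1793.5, 2686.2 and 2213.3 in the contralateral ones. Animal 4 was again the exception, with 0.31, whereas animals 5 and 6 had -1.02 and -0.49. Its difference was -0.40 (SE 0.22, limma adjusted p = 0.781), with a 95% interval from -0.89 to 0.09.

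Gys1, the glycogen synthase of muscle, was the member with the smallest difference. It had 833.8, 807.8 and 1051.1 in the ipsilateral muscles, against 824.6, 1166.4 and 883 in the contralateral ones. The groups overlapped, and the animals had different directions, with 0.02, -0.52 and 0.25 in animals 4, 5 and 6. The mean was 898 ± 134 in the ipsilateral and 958 ± 183 in the contralateral muscles (SD, n = 3 each), a difference of -0.09 (SE 0.17, limma adjusted p = 0.947). Its 95% interval ran from -0.47 to 0.30, which includes the difference of -0.36 measured for Pygm.

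Set against Gys1 within each animal, with the brightest probe set of each gene, the differences of Phka1, Pygm and Pgm1 were the more negative in all 3 animals. The difference of Phka1 minus that of Gys1 was -0.24, -0.79 and -0.88 in animals 4, 5 and 6. For Pygm it was -0.06, -0.18 and -0.57, and for Pgm1 -0.22, -0.13 and -0.49. For Phkb and Phkg1 it was below 0 in 2 of the 3 animals. The median over all tested probe sets was -0.02, -0.03 and 0.01 in animals 4, 5 and 6, against 0.02, -0.52 and 0.25 for Gys1. An ordinary probe set thus also lay below Gys1 in animals 4 and 6, though not in animal 5. The share of all probe sets below Gys1 in every animal was not counted. The dimmer probe sets of Phka1, Pgm1 and Pygm did not share this in animal 4, where the dimmer Phka1 probe set lay above Gys1 by 0.24, that of Pgm1 by 0.30 and the dimmest Pygm probe set by 0.17, while the remaining Pygm probe set was at -0.004 from it. In animals 5 and 6 all 4 were below Gys1, from -0.25 to -1.11. An exact two-sided sign-flip permutation test over 3 pairs cannot give a p below 0.25, so no such contrast can pass it, and these 5 comparisons are given as values.

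**Figure D2:**
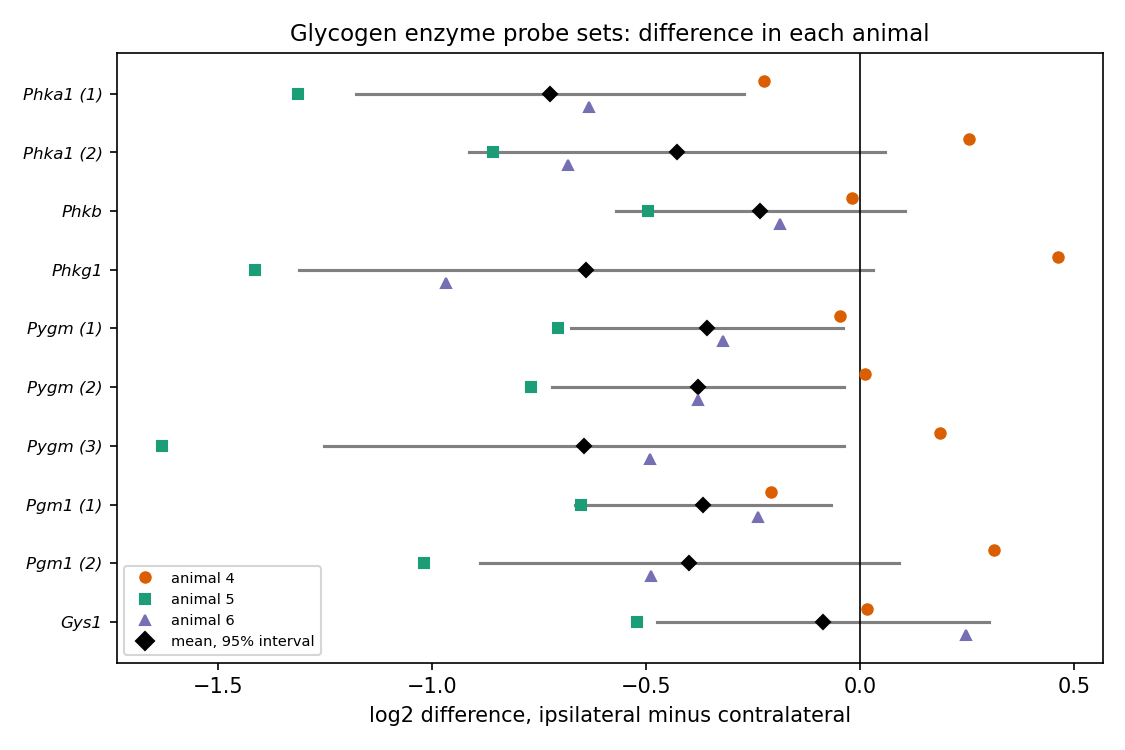
Log2 difference (x axis, ipsilateral minus contralateral) of the 10 member probe sets in animals 4, 5 and 6 (coloured marks), with limma's mean (black diamond) and its 95% interval (grey line). All points of animal 5 lie left of 0, the points of animal 4 lie between -0.23 and 0.46, and 5 of the 10 intervals span 0, those of the dimmer Phka1 and Pgm1 probe sets, Phkb, Phkg1 and Gys1.

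The animals differed from each other. The median difference over the brightest probe sets of the 6 genes was -0.03, -0.68 and -0.28 in animals 4, 5 and 6. Without animal 4, 5 of the 10 member probe sets were called in limma's fit, all of them lower, against 0.977% of tested probe sets called lower, 1.55% called higher and 2.53% called at all. They were Phkg1 at -1.19 (SE 0.17, adjusted p = 0.00453), the Phka1 probe sets at -0.97 and -0.77 (adjusted p = 0.0172 and 0.0303), the dimmest Pygm probe set at -1.06 (adjusted p = 0.0296) and the dimmer Pgm1 probe set at -0.75 (adjusted p = 0.0325). That fit has 2 pairs and 1 residual degree of freedom, and 0 members were called without animal 5 or without animal 6. Without animal 5, all 9 probe sets of the breakdown genes and Pgm1 kept a negative mean, between -0.09 and -0.43, and Gys1 was at 0.13.

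**Figure D3:**
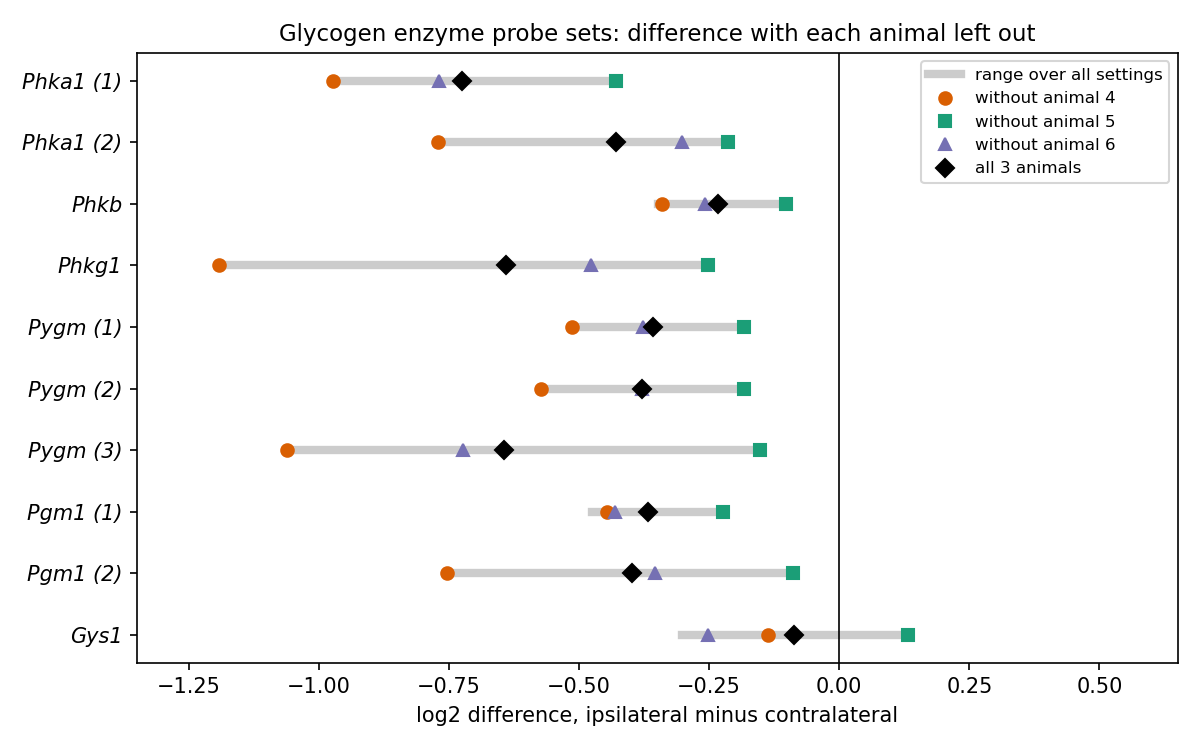
Log2 difference (x axis, ipsilateral minus contralateral) of the 10 member probe sets with all 3 animals (black diamond) and with each animal left out (coloured marks), over a grey band for the range of all settings tried. Leaving out animal 4 moved Phkg1 to -1.19 and leaving out animal 5 moved it to -0.25, and Gys1 is the one member that crossed 0.

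Probe sets of a gene had opposite signs in animal 4 only. The platform annotation listed a RefSeq mRNA for 3 member probe sets, the dimmer ones of Phka1 and Pgm1 and that of Phkg1, and another GenBank sequence for the other 7. In animal 4 the 3 had differences of 0.25, 0.31 and 0.46, and the 7 lay between -0.23 and 0.19. Over all tested probe sets the same split was small, with a median of 0.03 in animal 4 for 1488 probe sets of RefSeq mRNAs and -0.03 for 6633 of other sequences. The contralateral muscle of animal 4 was one of the 2 libraries with a high actin ratio, and the ipsilateral muscle of animal 6 was the other. Without these 2 libraries and without the pairing, an alternative chosen after seeing the data, 0 member probe sets were called and all 10 stayed negative. Phka1 was then at -0.71 and -0.26, Phkg1 at -0.48, the Pygm probe sets at -0.40, -0.42 and -0.66, and Gys1 at -0.30. This alternative keeps the ipsilateral library of animal 4 and so cannot show what part RNA quality had in its values. That part was not tested.

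Of the other genes of the pathway, 49 symbols were listed, 37 had a probe set of their own and 30 were bright enough to be tested. With the brightest probe set of each, 0 of the 30 were called by limma at an adjusted p under 0.05. At an unadjusted p under 0.05, 3 were lower and 1 was higher, against 2.88% and 3.54% of all named genes. In all 3 animals, 7 were lower and 6 higher, where 15.8% and 12.1% of named genes were. The median difference was -0.03, close to the -0.02 over all named genes.

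Calm2 is one of the genes for calmodulin, the delta subunit of phosphorylase kinase. Like the other subunits measured, it had a lower ipsilateral mean and was not called. Phkg1 and the dimmer Phka1 probe set were higher in animal 4, at 0.46 and 0.25. Calm2 was not higher in any animal. It had 1894.4, 1300.9 and 1440.1 in the ipsilateral muscles, against 1945.3, 2394.3 and 2076.7 in the contralateral ones. The groups did not overlap, as in this direction for 5.78% of all tested probe sets. The difference was -0.48 (SE 0.17, limma adjusted p = 0.668), with -0.04, -0.87 and -0.52 in animals 4, 5 and 6. Calmodulin also serves many other enzymes. Phkg2, the gamma subunit best known from liver, differed by -0.10 (SE 0.17), and Phka2 had no probe set of its own among those used here.

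Stbd1, a glycogen-binding protein linked to the uptake of glycogen into lysosomes, had 856.7, 526 and 516.4 in the ipsilateral muscles, against 922.6, 779.8 and 845.4 in the contralateral ones. It was lower in all 3 animals, and the groups overlapped only through animal 4. The difference was -0.45 (SE 0.16, limma adjusted p = 0.69). Ppp1r1a, an inhibitor of protein phosphatase 1, differed by -0.40 (SE 0.18, limma adjusted p = 0.776), with 0.13 in animal 4. Prkar2a, a regulatory subunit of protein kinase A, differed by -0.25 (SE 0.14), and its dimmer probe sets gave 0.06 and -0.30.

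Prkaa1, a catalytic subunit of the AMP-activated kinase, had 332.6, 281.3 and 236.3 in the ipsilateral muscles, against 198.1, 155.8 and 185.8 in the contralateral ones. The groups did not overlap in this direction, as for 4.74% of all tested probe sets, and animal 4 shared the direction, with 0.70, 0.79 and 0.32 in animals 4, 5 and 6. The difference was 0.61 (SE 0.16, limma adjusted p = 0.529). A second Prkaa1 probe set was too dim to be tested, at 10.7 to 17 in the ipsilateral and 11.3 to 17.8 in the contralateral muscles.

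The isoform genes of other tissues were examined beside the muscle ones. Pygl, the liver phosphorylase, had 41.9, 49.2 and 58.3 in the ipsilateral muscles, against 75.5, 71.2 and 71 in the contralateral ones, a difference of -0.44 (SE 0.17, limma adjusted p = 0.73). Its groups did not overlap, as in this direction for 5.78% of all tested probe sets, and animal 4 had the most negative value of the 3, at -0.66. Pygl was dim, and its ipsilateral value in animal 4 lay under the filter's intensity of 42.4. Pygb, the brain phosphorylase, differed by 0.15 (SE 0.15, limma adjusted p = 0.88). Gys2, the liver synthase, was at 2.1 to 2.5 in the ipsilateral and 1.3 to 2.8 in the contralateral muscles, under the filter on dim probe sets. In the fit without animal 4, Calm2, Ppp1r1a and Prkaa2, a catalytic subunit of the AMP-activated kinase, were called by limma among the 30, at -0.70, -0.66 and -1.42 (adjusted p = 0.0335, 0.0422 and 0.0135). All 3 were lower, and over all tested probe sets that fit called 0.977% lower and 2.53% in all. Prkaa2, named here because of its call and so after its values were seen, had 1.07, -0.93 and -1.91 in animals 4, 5 and 6. Its intensities were 247.5, 83.5 and 6.3 in the ipsilateral muscles, against 109.6, 174 and 67.2 in the contralateral ones. The 6.3 of animal 6 lay under the filter's intensity of 42.4, and both the -1.91 and the called -1.42 draw on that dim value.

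**Figure D4:**
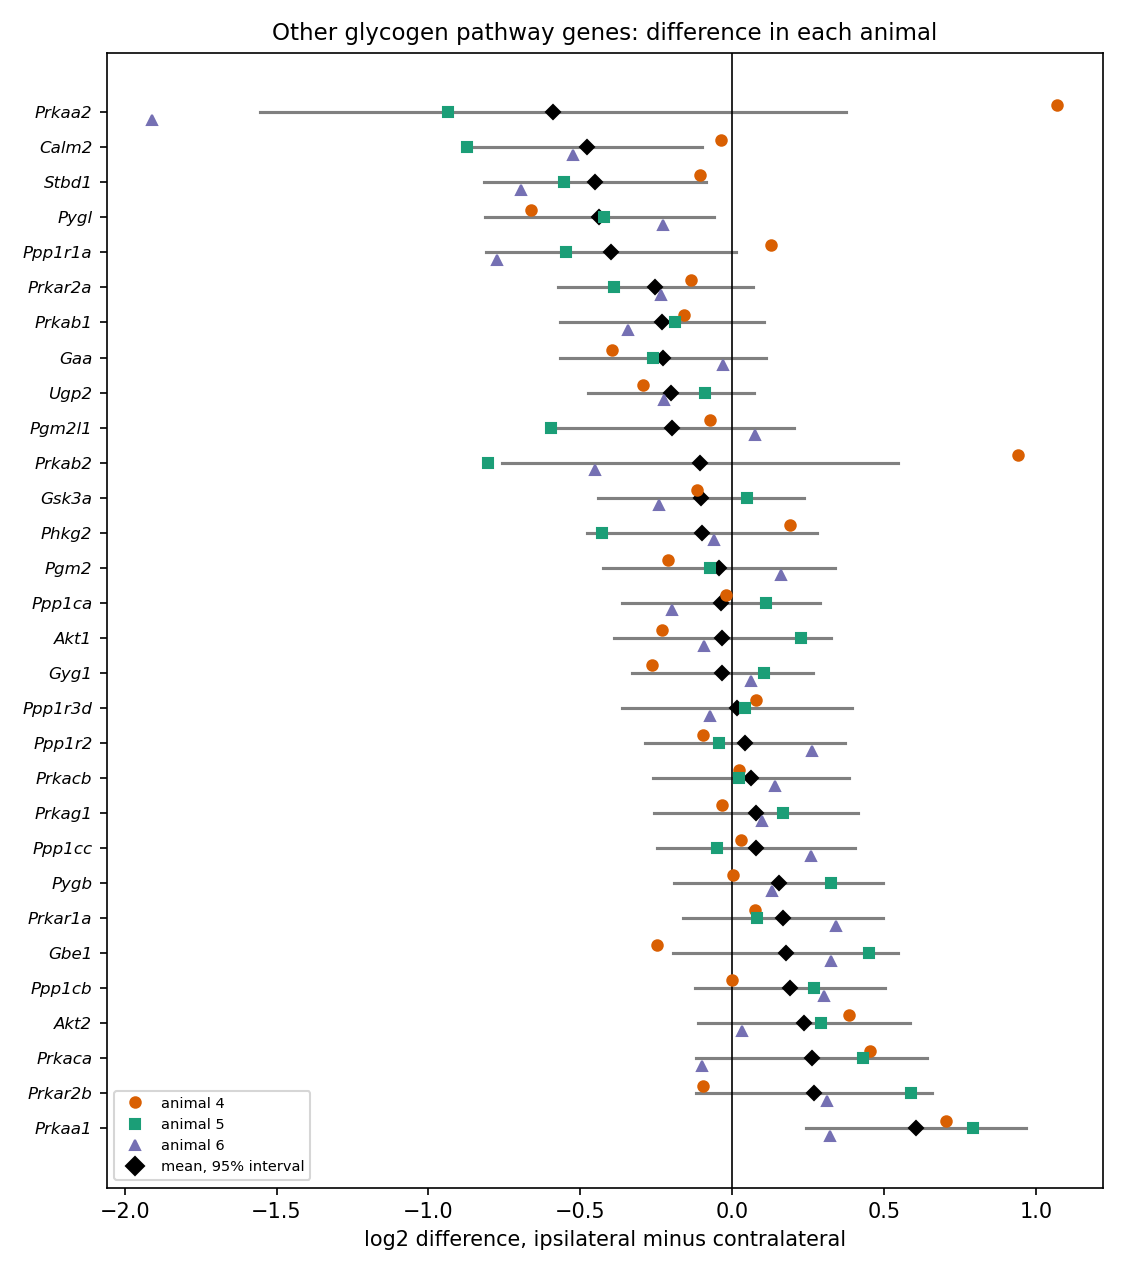
Log2 difference (x axis, ipsilateral minus contralateral) of the brightest tested probe set of 30 other glycogen pathway genes in animals 4, 5 and 6 (coloured marks), ordered by limma's mean (black diamond, with its 95% interval in grey). Calm2, Stbd1 and Pygl lie left of 0 in every animal, Prkaa1 lies right of 0 in every animal, and most intervals span 0.

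Genes with the profile most like a member's were found by the root mean square (RMS) distance between log2 values centred on their mean, over the 6 libraries. With so few libraries, some of 9519 probe sets lie close to any profile, and the distances are a description only. Nearest to Phka1, whose own spread was 0.45, were Ampd1, the muscle AMP deaminase, at a distance of 0.12, and Ptp4a2 at 0.13. Nearest to Phkg1, with a spread of 0.60, were Mylk2, the calmodulin-dependent kinase of skeletal muscle myosin light chain, at 0.10, and Vapb at 0.14. Mylk2, like Phkg1, was positive in animal 4 only, with 0.51, -1.39 and -0.85 in animals 4, 5 and 6.

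Nearest to Pygm were Agtpbp1 at 0.03 and Rtn2 at 0.05, and nearest to Pgm1 were Cxxc5 at 0.03 and Mybpc2, a thick-filament protein of fast fibres, at 0.05. Nearest to Phkb were Fam241b and Tpp1, a lysosomal peptidase, both at 0.06. Nearest to Gys1 were Itpr2, an inositol trisphosphate receptor, at 0.04 and Esrrb at 0.05. The genes nearest to the mean of the 6 members, itself with a spread of 0.28, were Scaf11, Scarb2, Rtn2, Calm2 and Gpi, the glycolytic enzyme that follows phosphoglucomutase, at 0.06 to 0.07.

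Fibre-type transcripts were measured beside the members. Of 12 tested fast-twitch genes 9 had a negative difference, with a median of -0.23, and their summed intensity was 50046 to 56433 in the ipsilateral and 59183 to 65742 in the contralateral muscles. Of 10 slow-twitch genes all 10 had a positive one, with a median of 1.14, and sums of 14878 to 29155 against 9567.3 to 12543.5. In the single animals, the slow-twitch median was 0.27, 2.01 and 1.11 in animals 4, 5 and 6, and the fast-twitch median was -0.22, -0.42 and 0.01. The slow-twitch list and the adipocyte list below had the members' order of animals, smallest in animal 4 and largest in animal 5. Myh4, a myosin heavy chain of the fastest fibres, had 2233.3, 1015.9 and 1178.7 in the ipsilateral muscles, against 2750.8, 2421.3 and 2751.9 in the contralateral ones. Myh7, the slow myosin heavy chain, had 1212.5, 3473.9 and 2443.8 in the ipsilateral muscles, against 872.3, 424.1 and 755.3 in the contralateral ones. These lists hold transcripts of the fibres themselves, and their part in the members' values was not tested.

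Markers of other cells were measured the same way. All 5 tested adipocyte genes had a positive difference, with medians of 0.44, 0.84 and 0.69 in animals 4, 5 and 6. Their sums were 2485 to 4181 in the ipsilateral and 2094 to 2769 in the contralateral muscles, and Pparg, Plin1 and Lep were too dim to be tested. Of 9 tested macrophage and immune genes 7 had a negative one, with sums of 3175 to 4592 against 4459 to 4861. Fibroblast and tendon sums overlapped, at 9701 to 11393 and 9754 to 10956, and Schwann cell sums were 864.5 to 935 against 663 to 793. Of 8 tested fibroblast and tendon genes 5 had a positive difference and 3 a negative one, with a median of 0.25. Of 3 tested Schwann cell genes 2 had a positive difference and 1 a negative one, and Prx and Sox10 were too dim to be tested. Transcripts common to fibre types had a median difference of 0.01 over 11 genes. Scaling each library to those 11 genes shifted every mean difference by the same -0.04, so no negative one could change sign. The 10 member probe sets then ran from -0.13 for Gys1 to -0.77 for Phka1. The part of the other cells in the members' values was not tested.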

How the data were processed

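Per the labels, total RNA of 6 muscles from 3 rats was measured, 1 array each. Titles gave the group, with Cont read as contralateral, and the animal. Pairing follows from the design, and over probe sets the deviations of an animal's 2 muscles from their group means correlated at -0.04, 0.07 and 0.13 in animals 4, 5 and 6. The deposited values are linear intensities, with a mean of 150 on each array once the lowest and highest 2% are left out. The software behind them was not given in the sources used here. The platform annotation, of some age, named 12789 of 15923 probe sets by 1 symbol and 312 by several, which were not used. RefSeq's gene table of GRCr8 held the gene IDs of 12754.

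Without the 57 control probe sets, log2(intensity + 15.8) was tested where its mean lay above the 40th percentile (5.86, or an intensity of 42.4). The pseudocount is the 20th percentile. Array medians lay within 0.117, under a limit of 0.2, so arrays were not normalized further. limma 3.58.1 in R 4.3.3 was fitted with animal as a block and an intensity trend, on 2 residual and 7.47 prior degrees of freedom, after tests on simulated data. Plots used matplotlib 3.10.9. Named were all members, pathway genes with the 6 smallest p-values or p under 0.05, liver and brain isoforms, genes most like a member, Myh4 and Myh7. Members and lists were chosen with earlier results of these data known. Alternatives covered the block, pseudocount, normalization, filter, variance prior, probe set choice and each animal left out. A further 2, leaving out libraries that stood apart, were chosen after seeing the data.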

Additional observations from a re-analysis of the deposited data

How the results depend on the processing

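Over the 13 or 14 alternatives run for each member probe set, the differences of the breakdown genes and Pgm1 kept their direction. That of Gys1 kept it in 13 of 14, being 0.13 without animal 5. Several alternatives could not change these signs, so the counts do not measure robustness. Dropping the block or the intensity trend, or changing the filter, left each mean difference as it was. Scaling to fibre structure genes shifted all of them by -0.04. Leaving out 1 animal at a time gave 0 to 241 called probe sets in all, 0 to 5 among the members and 0 to 3 among the other pathway genes, where each highest count is the one without animal 4. Without ipsilateral 4 and without the pairing, chosen after seeing the data, 87 of all 9519 tested probe sets were called. Of these, 3 were members (the brighter Phka1 probe set at -0.96, Phkg1 at -1.13 and the dimmest Pygm probe set at -1.002) and 0 were other pathway genes. Without contralateral 4 and ipsilateral 6, chosen likewise, 1 probe set was called and 0 members. Without the replicate block, with either other pseudocount, either other normalization, either other filter or no intensity trend, the calls were 0 in all and 0 among the members and pathway genes. The member probe sets lower at an unadjusted p under 0.05, 5 as reported, were 2 (Phka1 and Pgm1, the brighter of each) with quantile normalization, without the filter, without the intensity trend and without animal 6, where 2.67%, 2.6%, 2.7% and 1.85% of all tested probe sets were. They were 0 without animal 5, where 0.966% were, and 9 without animal 4, where 7.82% were. The cause of these shifts was not tested. With 3 pairs of arrays and a median SE of 0.16, large differences that varied between animals were not called either, such as that of Myh7, at 1.71 (limma adjusted p = 0.333).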
